A study of Mus musculus with 36 samples.

Results

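The comparison set the 6 hypothalamus libraries of wild-type mice against the 6 brainstem libraries of wild-type mice, which are 12 of the 36 libraries of the series and were chosen by their tissue and genotype labels. All 12 carried the strain label C57BL/6. In each region 3 libraries came from wild types of the Hcrt/Orexin-ataxin-3 line and 3 from wild types of the Hcrt/Orexin knockout line, so the line was kept as a factor in every test. The series was made to compare 2 mouse models of narcolepsy with their wild types in hypothalamus, cortex and brainstem. One model lacks the Hcrt gene, and in the other an ataxin-3 transgene driven by the Hcrt promoter kills the neurons that make the peptide. The wild types used here carry neither change. The labels did not give age or sex, nor whether a library held RNA of 1 animal or of several, so the spread behind each p-value is that between libraries and may be partly technical. A second set of 12 libraries, the transgenic and knockout hypothalamus and brainstem, shares no library with the first and was used for the same contrast.

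The hypothalamus is the ventral part of the diencephalon. Its small nuclei make the peptides that leave through the posterior pituitary, the releasing hormones that act on the anterior pituitary, and the peptides that set feeding, body temperature and wakefulness. The brainstem joins midbrain, pons and medulla. It holds the cell bodies that make serotonin and noradrenaline, the motor neurons of the cranial nerves, many glycine-releasing neurons, and the long myelinated tracts that run between brain and spinal cord. Hox genes, which give hindbrain and spinal cord their positions along the body axis, are off in the forebrain.

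Polyadenylated RNA was sequenced, and whole-number read counts per gene were analysed. Gene counts summed to 27547467 to 37657710 in the hypothalamus libraries and to 21915540 to 38251227 in the brainstem libraries. Reads not assigned to a gene were 25.2% to 26.0% of a hypothalamus library and 27.0% to 42.0% of a brainstem library, highest in brainstem libraries 1 and 2 of the ataxin-3 line. Transcripts of adjoining tissue stood out in some libraries, those of pituitary in 3 hypothalamus libraries (1 and 3 of the ataxin-3 line, 3 of the knockout line), those of cortex in 2 (1 and 3 of the knockout line) and those of cerebellum in 3 brainstem libraries (3 of the ataxin-3 line, 1 and 2 of the knockout line). Each tissue set is named for the gene list that was high in it. The name does not exclude transcripts of other tissues there, or of the same tissue in other libraries. Results that moved without one of these sets are given both ways. Levels are CPM, read counts divided by library size, scaled by trimmed mean of M-values factors, and are given as the lowest, the median and the highest of the 6 libraries of a region unless another form is named. Differences are fitted log2 fold changes, hypothalamus over brainstem, with their standard error (SE), and adjusted p-values come from the quasi-likelihood test of edgeR with Benjamini-Hochberg adjustment over all genes tested. Of 16973 genes that passed the filter on low counts, 11854 (69.8%) passed an adjusted p of 0.05, with 6125 (36.1%) higher in hypothalamus and 5729 (33.8%) lower. Because 47.1% of the called genes had an absolute log2 fold change under 0.5, a stricter rule asked whether a change exceeded 2-fold. By that rule 1814 genes (10.7%) were called, 981 (5.78%) higher in hypothalamus and 833 (4.91%) lower. A gene with almost no counts in one region passed the filter through the other, which set the direction of its difference. The 6 libraries of one region did not overlap the 6 of the other in 8334 genes (49.1%), and such genes were higher in hypothalamus in 4427 (26.1%) and lower in 3907 (23.0%). The split of calls by direction depends on the scaling, since without scaling factors 7609 genes were higher in hypothalamus and 3933 lower, with the median of all genes shifted by 0.15 on the log2 scale. In tissue RNA of this kind, fewer cells of a type and less RNA per cell cannot be told apart.

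**Figure D1:**
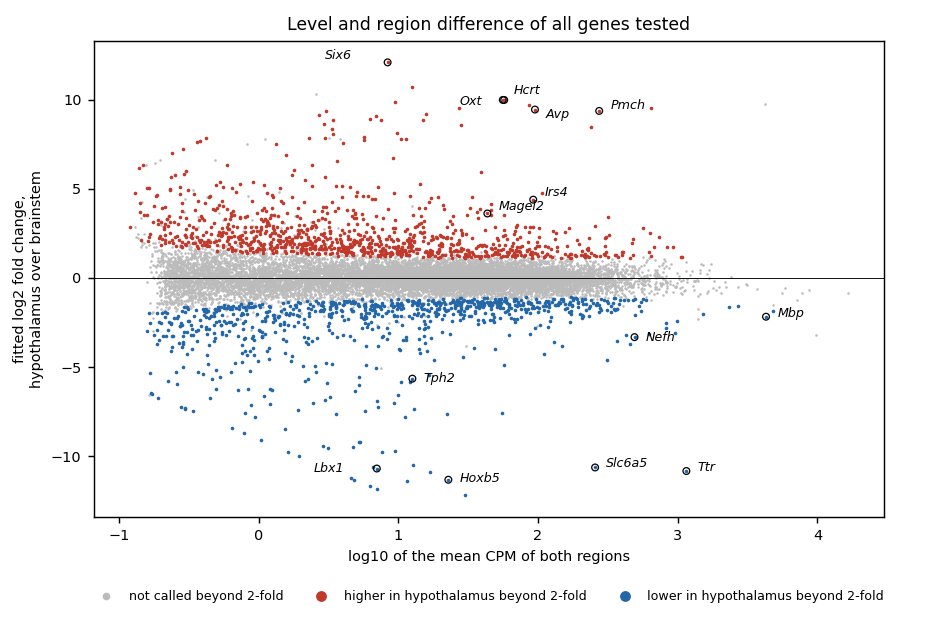
Each point is 1 of the 16973 genes tested. The horizontal axis is the log10 of the mean CPM of both regions and the vertical axis the fitted log2 fold change, hypothalamus over brainstem. Red points were called higher and blue points lower in hypothalamus beyond 2-fold, and circles mark named genes. Fitted fold changes of genes with 0 to 3 counts in one region, such as Six6 and Lbx1, depend on the prior count and are no bounds.

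Promoters of 6 genes that carry the contrast are printed here, 3 of peptide genes that were high in hypothalamus (Oxt, Hcrt, Pmch) and 3 of genes that were high in brainstem (Hoxa5, Slc6a5, Tph2). Each is the 300 bases from 250 before to 50 after the transcription start, on the gene's strand, from RefSeq on build GRCm38.p6. Capitals mark TATAAA, the core of a TATA box, and AGGTCA, the hexamer that many nuclear receptors bind, each searched on both strands.
Oxt (chr2:130575919-130576218, plus strand): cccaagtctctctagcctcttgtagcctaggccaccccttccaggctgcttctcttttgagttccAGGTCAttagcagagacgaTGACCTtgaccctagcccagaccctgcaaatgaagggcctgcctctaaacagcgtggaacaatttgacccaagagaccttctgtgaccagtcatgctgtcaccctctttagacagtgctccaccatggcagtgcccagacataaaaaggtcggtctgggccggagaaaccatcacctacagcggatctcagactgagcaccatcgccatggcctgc
Hcrt (chr11:100762882-100763181, minus strand): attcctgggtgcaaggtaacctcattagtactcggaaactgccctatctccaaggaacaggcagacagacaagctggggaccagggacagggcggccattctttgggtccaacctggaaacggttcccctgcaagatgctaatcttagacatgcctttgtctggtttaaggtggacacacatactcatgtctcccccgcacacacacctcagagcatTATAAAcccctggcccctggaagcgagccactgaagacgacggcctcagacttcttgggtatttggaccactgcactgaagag
Pmch (chr10:88090822-88091121, plus strand): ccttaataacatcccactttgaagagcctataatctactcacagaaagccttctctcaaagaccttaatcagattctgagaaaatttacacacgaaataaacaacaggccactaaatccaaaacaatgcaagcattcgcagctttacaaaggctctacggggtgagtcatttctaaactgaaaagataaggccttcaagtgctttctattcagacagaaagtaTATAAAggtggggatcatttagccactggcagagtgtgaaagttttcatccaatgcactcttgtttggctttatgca
Hoxa5 (chr6:52204538-52204837, minus strand): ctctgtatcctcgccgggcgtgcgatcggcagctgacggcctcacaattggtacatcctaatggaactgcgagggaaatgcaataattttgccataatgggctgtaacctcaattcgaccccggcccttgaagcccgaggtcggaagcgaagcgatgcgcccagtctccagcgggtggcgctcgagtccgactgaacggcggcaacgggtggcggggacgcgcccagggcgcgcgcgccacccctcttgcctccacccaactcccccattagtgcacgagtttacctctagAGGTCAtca
Slc6a5 (chr7:49910049-49910348, plus strand): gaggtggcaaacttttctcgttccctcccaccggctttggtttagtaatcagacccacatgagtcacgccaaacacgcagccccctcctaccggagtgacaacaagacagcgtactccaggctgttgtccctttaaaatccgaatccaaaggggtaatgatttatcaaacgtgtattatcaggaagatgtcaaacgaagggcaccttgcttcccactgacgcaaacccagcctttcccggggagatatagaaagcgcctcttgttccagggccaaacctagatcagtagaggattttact
Tph2 (chr10:115184973-115185272, minus strand): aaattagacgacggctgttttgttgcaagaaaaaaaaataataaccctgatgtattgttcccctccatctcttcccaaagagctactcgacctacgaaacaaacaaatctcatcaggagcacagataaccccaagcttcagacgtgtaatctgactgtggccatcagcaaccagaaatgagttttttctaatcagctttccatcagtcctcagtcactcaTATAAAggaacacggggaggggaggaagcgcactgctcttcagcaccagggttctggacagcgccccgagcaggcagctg
The Hcrt, Pmch and Tph2 promoters held TATAAA 33, 27 and 30 bases before the start. Oxt held AGGTCA 185 bases before the start and, on the other strand, 166 bases before it, while Hoxa5 held it 41 bases after the start and the Slc6a5 window held neither motif. TATAAA lay on either strand of 4473 of the 32851 promoters in the table (13.6%) and AGGTCA on 5340 (16.3%). CG dinucleotides, of which the median promoter held 7, numbered 29 in Hoxa5, 12 in Slc6a5, 9 in Tph2, 7 in Hcrt, 6 in Oxt and 3 in Pmch. These matches describe the letters in the window. Of the genes named for the largest called differences, 12 of 15 higher in hypothalamus and 7 of 14 lower had a promoter in the table, 1 further lower gene not being reported here. TATAAA was in 3 of those 12 and in 1 of those 7, and AGGTCA was in 3 of each.

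Hypothalamic hormone genes stood among the largest differences of the comparison. Of the 10 genes listed for magnocellular and releasing hormones, 9 were tested, 8 were higher in hypothalamus and 1 was lower, and 7 and 1 of these passed the 2-fold rule (over all genes tested, 36.1% were higher and 33.8% lower, and 5.78% and 4.91% by the 2-fold rule). Th, an enzyme and not a hormone gene, is among the 8 and the 7, and is given with the catecholamine genes. The median log2 fold change of the 9 was 3.54, against 0.02 over all genes tested, and 8 of the 9 had all 6 hypothalamus libraries above all 6 brainstem libraries, as had 26.1% of all genes tested. Oxt, the oxytocin precursor (chr2:130576173-130577054, plus strand), had 85.3, 112 and 154 CPM in hypothalamus and 0, 0.0695 and 0.473 CPM in brainstem. No brainstem library came near the lowest hypothalamus library. The log2 fold change of Oxt was 9.998 ± 0.33, adjusted p = 4.5e-10, and 11.10 without brainstem library 1 of the ataxin-3 line, which held most of the brainstem counts. Avp, the vasopressin precursor on the opposite strand of the same chromosome (chr2:130580620-130582554, minus strand), had 108, 193 and 279 CPM in hypothalamus and 0.0288, 0.189 and 0.748 CPM in brainstem, a log2 fold change of 9.46 ± 0.42, adjusted p = 1.16e-08. The regions did not overlap.

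Trh, which encodes thyrotropin-releasing hormone, was expressed in both regions, with 89, 100.3 and 132 CPM in hypothalamus and 6.2, 8.93 and 12.6 CPM in brainstem (log2 fold change 3.54 ± 0.23, adjusted p = 2.12e-07). Ghrh, the growth hormone-releasing hormone gene of the arcuate nucleus, had 5.59, 7.87 and 13.6 CPM in hypothalamus and 0.0788, 0.239 and 0.431 CPM in brainstem. Gnrh1, made by the few scattered neurons that drive the gonadal axis, was low even in hypothalamus, at 1.45, 2.01 and 2.87 CPM, against 0.029, 0.14 and 0.236 CPM in brainstem (log2 fold change 3.93 ± 0.29, adjusted p = 7.47e-09). The regions did not overlap in either gene. Tac2, the neurokinin B precursor, had 20.7, 26.3 and 31.1 CPM in hypothalamus and 1.47, 2.86 and 5.34 CPM in brainstem. Sst, the somatostatin precursor, which is widespread in the brain, differed less, with 115, 129.7 and 167 CPM in hypothalamus and 64.4, 72.9 and 80.0 CPM in brainstem (log2 fold change 0.91 ± 0.09, adjusted p = 5.1e-07). Crh, the corticotropin-releasing hormone gene, was the list's exception. Its level was 2.15, 2.58 and 4.1 CPM in hypothalamus and 5.16, 11.1 and 12.1 CPM in brainstem, a log2 fold change of -1.78 ± 0.22, adjusted p = 1.58e-05, and all 6 hypothalamus libraries lay below all 6 brainstem libraries. Crh no longer passed the 2-fold rule without the 2 brainstem libraries with a high share of unassigned reads.

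Of 30 feeding and arousal peptide genes listed, 27 were tested, 19 higher and 7 lower in hypothalamus (36.1% and 33.8% of all genes tested). Beyond 2-fold were 16 and 4 (5.78% and 4.91%). The median log2 fold change of the 27 was 1.99. Pmch, the precursor of melanin-concentrating hormone, which is made in lateral hypothalamus and zona incerta (chr10:88091072-88092375, plus strand), had the highest level per length of the members named here, with a mean of 731 CPM per kb of exon in hypothalamus. It had 403, 526 and 702 CPM in hypothalamus and 0.435, 0.719 and 1.42 CPM in brainstem (log2 fold change 9.38 ± 0.14, adjusted p = 1.9e-14). Pmch overlaps Parpbp on the opposite strand, and whether reads were counted by strand is not given in the sources used here. Hcrt, the hypocretin (orexin) precursor of the wake-promoting neurons of the lateral hypothalamus (chr11:100761069-100762931, minus strand), had 52, 92.2 and 197 CPM in hypothalamus and 0, 0.101 and 0.218 CPM in brainstem, a ratio of mean levels of 1001 (adjusted p = 1.19e-09). Its lowest hypothalamus library was far above its highest brainstem library, and the hypothalamus libraries differed widely among themselves. In CPM per kb of exon, hypothalamic Hcrt averaged 149, Oxt 213 and Avp 329.

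Cartpt, Pdyn, Gal and Tac1, which encode the CART, dynorphin, galanin and substance P precursors, were expressed in both regions and higher in hypothalamus. Cartpt had 67.8, 80.2 and 113 CPM in hypothalamus and 5.69, 6.15 and 6.69 CPM in brainstem (log2 fold change 3.81 ± 0.13, adjusted p = 6.51e-11). Pdyn had 73.1, 78.7 and 105 CPM in hypothalamus and 5.29, 7.08 and 8.83 CPM in brainstem (log2 fold change 3.54 ± 0.14, adjusted p = 3.08e-10). Neither gene's regions overlapped, and the brainstem levels of Cartpt stayed within a narrow range. Gal had 27.6, 32.9 and 38.4 CPM in hypothalamus and 5.87, 6.4 and 6.58 CPM in brainstem, and Tac1 had 66.4, 86.1 and 99.9 CPM in hypothalamus and 16.5, 18.8 and 21.9 CPM in brainstem, their log2 fold changes being 2.40 ± 0.09 and 2.15 ± 0.10 (adjusted p = 2.28e-12 and 2.71e-10). In 3 further peptide genes brainstem held 0 to 4 counts in all. Npvf, the precursor of the RFamide peptides of the dorsomedial nucleus, had 4.05, 5.83 and 7.75 CPM in hypothalamus and 4 counts in all 6 brainstem libraries together. Qrfp, another RFamide precursor, had 3.35, 4.54 and 6.61 CPM in hypothalamus and 3 brainstem counts, a ratio of 284 (95% counting interval 96.8 to 1378). All 3 lay in brainstem library 3 of the knockout line, and the log2 fold change was 7.88 with all libraries, 10.22 without that library and 6.80 without the 3 cerebellum-holding brainstem libraries. Prok2, a secreted signal of the suprachiasmatic nucleus, had 0.622, 0.679 and 1.49 CPM in hypothalamus and no count in brainstem, so that it was at least 8.09-fold higher against a floor of 3 counts per library. These intervals and floors cover counting error.

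Pomc, the precursor of melanocortins and β-endorphin, is made both by arcuate neurons and by the pituitary. It had 53.2, 296 and 1119 CPM in hypothalamus, against 0.924, 1.24 and 1.72 CPM in brainstem, a log2 fold change of 8.46 ± 1.19, adjusted p = 0.000134. The 6 hypothalamus libraries fell into a high set and a low set. In the 3 libraries with pituitary transcripts described further on (ataxin-3 line libraries 1 and 3, knockout line library 3) Pomc had 1026, 508 and 1119 CPM, against 83.1, 53.2 and 85.3 CPM in the other 3. The log2 fold change was 5.80 (adjusted p = 4.5e-08) without those 3 libraries, 7.39 without knockout line hypothalamus library 3, and 7.65 without the 2 hypothalamus libraries with cortical transcripts.

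The 7 lower members of the list were Calca, Calcb, Gcg, Rln3, Npb, Nmu and Penk, the first 4 of them beyond 2-fold. Npb, the neuropeptide B gene, and Nmu, the neuromedin U gene, had log2 fold changes of -1.05 ± 0.25 and -0.72 ± 0.21 (adjusted p = 0.00145 and 0.00713). Calca and Calcb, the calcitonin gene-related peptides of motor and parabrachial neurons, had 2.99, 3.3 and 5.15 and 0.0494, 0.0667 and 0.124 CPM in hypothalamus. In brainstem Calca had 12.9, 16.2 and 17.6 CPM and Calcb had 3.83, 4.13 and 5.04 CPM, giving log2 fold changes of -2.14 ± 0.12 and -5.76 ± 0.19 (adjusted p = 2.95e-10 and 9.6e-13). Gcg, the preproglucagon gene of neurons in the nucleus of the solitary tract, had 4 counts in all 6 hypothalamus libraries and 1.27, 1.67 and 2.2 CPM in brainstem. The regions overlapped in Rln3, the relaxin-3 gene of the nucleus incertus, with 0.0257, 0.0929 and 0.194 CPM in hypothalamus and 0.144, 1.66 and 3.05 CPM in brainstem. Brainstem Rln3 in library order was 1.58, 1.85 and 0.203 CPM in the ataxin-3 line and 0.144, 3.05 and 1.74 CPM in the knockout line. Penk, the enkephalin precursor, had 90.5, 105 and 139.7 CPM in hypothalamus and 118, 139.6 and 149.6 CPM in brainstem, and its small difference (log2 fold change -0.27 ± 0.11, adjusted p = 0.047) kept its call without hypothalamus library 3 of the ataxin-3 line or 1 of the knockout line or brainstem library 2 of the ataxin-3 line, and lost it without any other single library (adjusted p = 0.0537 to 0.101).

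**Figure D2:**
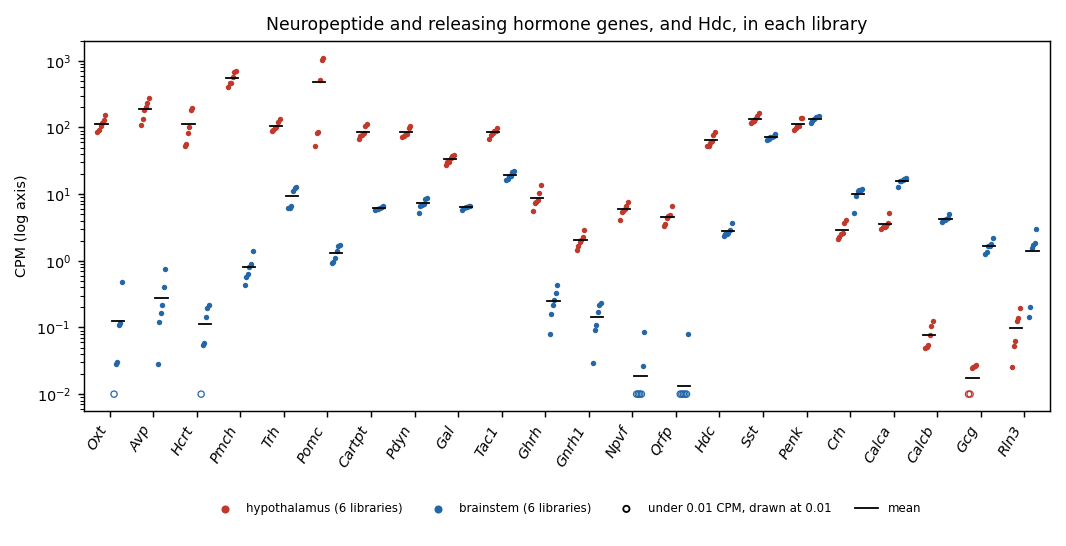
CPM (log axis) of neuropeptide and releasing hormone genes and of Hdc in each of the 6 hypothalamus libraries (red) and 6 brainstem libraries (blue), with a bar at the mean. Open circles are values under 0.01 CPM, drawn at 0.01. Oxt, Avp, Hcrt and Pmch sit near or above 100 CPM in hypothalamus and near or under 1 CPM in brainstem, while Crh, Calca, Calcb and Gcg are higher in brainstem.

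Transcription factors that pattern the hypothalamus and other ventral forebrain followed the same division. Of 34 listed, 33 were tested, with a median log2 fold change of 5.18. In hypothalamus 28 were higher and 2 lower (36.1% and 33.8% of all genes tested), and 26 of the 28 passed the 2-fold rule (5.78%). Members with almost no brainstem counts, such as Six6, Bsx and Fezf1, passed the filter through the hypothalamus libraries. Their direction was set by the filter, so their calls, and the median they enter, are a description only. Six6 (chr12:72939892-72944899, plus strand), a homeobox gene of the ventral forebrain and eye, had 10.5, 14.6 and 25.3 CPM in hypothalamus and no count in any brainstem library, at least 161-fold higher. It overlaps 4930447C04Rik on the opposite strand. Nkx2-1, needed to form the ventral hypothalamus, had 22.9, 29.1 and 37.7 CPM in hypothalamus and 0, 0.0422 and 0.158 CPM in brainstem (log2 fold change 8.88 ± 0.28, adjusted p = 1.43e-11). Every hypothalamus library stood above every brainstem library in both genes.

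Factors of single nuclei also had few counts in brainstem. Fezf1 and Nr5a1, which mark the ventromedial nucleus, had 17.9, 22.8 and 34.4 and 13.2, 19.7 and 25.2 CPM in hypothalamus and a total of 2 and 3 counts in brainstem. The ratio was 2309.5 (95% counting interval 639 to 19075) for Fezf1 and 1150.2 (95% counting interval 393 to 5579.9) for Nr5a1. Both Fezf1 counts, like the single brainstem count of Bsx, lay in library 1 of the ataxin-3 line. Bsx, a homeobox gene of arcuate feeding neurons, had 4.44, 5.84 and 8.25 CPM in hypothalamus and 1 brainstem count, a ratio of 1111 (95% counting interval 199 to 43926). Sim1, which the paraventricular and supraoptic nuclei need, had 19.6, 20.9 and 21.4 CPM in hypothalamus and 0, 0.0829 and 0.272 CPM in brainstem (log2 fold change 7.82 ± 0.23, adjusted p = 9.45e-13), and was the most even of these across hypothalamus libraries. Dlx2 and Dlx6, factors of forebrain GABAergic neurons, had 10.9, 12.7 and 23.2 and 9.59, 12.1 and 17.7 CPM in hypothalamus, with 4 brainstem counts each. Isl1, which serves arcuate neurons here and motor neurons in the hindbrain, had 24.4, 27.2 and 31.6 CPM in hypothalamus and 2.62, 2.9 and 3.22 CPM in brainstem (log2 fold change 3.22 ± 0.08, adjusted p = 8.14e-14). Lhx9 and Nkx2-2 did not pass the test, with log2 fold changes of 0.33 ± 0.17, adjusted p = 0.0943 and -0.04 ± 0.08, adjusted p = 0.67, though Lhx9 did without hypothalamus library 2 of the knockout line (adjusted p = 0.011). Barhl1 and Irx5 were lower in hypothalamus (log2 fold changes -1.60 ± 0.27 and -0.56 ± 0.13, adjusted p = 0.000194 and 0.00145).

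Receptors for feeding signals and steroids were listed as 32 genes, all tested. Of these 24 were higher in hypothalamus and 2 lower (36.1% and 33.8% of all genes tested). Beyond 2-fold were 14 and 1 (5.78% and 4.91%), and the median log2 fold change was 0.97. Irs4, an insulin receptor substrate, had 156, 172 and 212 CPM in hypothalamus and 6.78, 8.13 and 11.1 CPM in brainstem (log2 fold change 4.40 ± 0.12, adjusted p = 3.46e-12). Calcr, the calcitonin and amylin receptor, had 35.1, 38.8 and 44.2 CPM in hypothalamus and 1.97, 2.2 and 3.23 CPM in brainstem (log2 fold change 4.07 ± 0.11, adjusted p = 2.43e-13). Mc3r, a melanocortin receptor, had 8.24, 8.77 and 13.1 CPM in hypothalamus and 0.197, 0.337 and 0.707 CPM in brainstem (log2 fold change 4.61 ± 0.23, adjusted p = 2.64e-10). In each of the 3 genes the regions were fully apart. Npy2r and Npy1r, receptors of neuropeptide Y, and Oxtr, the oxytocin receptor, had log2 fold changes of 2.23 ± 0.09, 1.53 ± 0.08 and 1.97 ± 0.10 (adjusted p = 8.24e-12, 1.94e-10 and 1.47e-10). Oxtr had 9.31, 9.996 and 11.5 CPM in hypothalamus and 2.07, 2.75 and 2.95 CPM in brainstem. Crhr1, the main receptor for corticotropin-releasing hormone, was lower in hypothalamus, with 9.03, 10.02 and 16.7 CPM against 24.2, 27.1 and 30.6 CPM in brainstem (log2 fold change -1.32 ± 0.14, adjusted p = 2.2e-06), as was its ligand. It was the 1 lower member past the 2-fold rule, and missed that rule under DESeq2, without scaling factors, and without the 3 pituitary-holding, the 3 cerebellum-holding or the 2 high-unassigned libraries. Lepr, the leptin receptor, had 3.98, 6.24 and 7 CPM in hypothalamus and 4.78, 6.19 and 9.14 CPM in brainstem and did not pass the test (adjusted p = 0.585). Both hypocretin receptors overlapped between regions. Hcrtr1 averaged 7.16 ± 0.944 CPM in hypothalamus and 6.46 ± 0.196 CPM in brainstem (SD, n = 6 each, adjusted p = 0.139 by edgeR). Hcrtr2 averaged 14.4 ± 1.73 CPM in hypothalamus and 14.9 ± 1.79 CPM in brainstem (SD, n = 6 each, adjusted p = 0.7 by edgeR).

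Histaminergic neurons, whose cell bodies lie in the tuberomammillary nucleus of the posterior hypothalamus, were represented by 8 genes. All 8 were tested, and 5 were higher in hypothalamus (36.1% of all genes tested) and none lower (33.8%). The 2-fold rule was passed by 2 (5.78%), which became 1 without the 3 brainstem libraries with more cerebellar transcripts. Hdc, the enzyme that makes histamine, had 51.9, 60.4 and 84.1 CPM in hypothalamus and 2.38, 2.61 and 3.68 CPM in brainstem (log2 fold change 4.53 ± 0.16, adjusted p = 9.24e-11). Hrh3, the autoreceptor of these neurons, had 61.8, 69.8 and 82.1 CPM in hypothalamus and 24.9, 25.6 and 33.1 CPM in brainstem (log2 fold change 1.38 ± 0.09, adjusted p = 9.96e-09). The regions did not overlap in either gene. Hnmt, which inactivates histamine, had 22.3, 24 and 24.4 CPM in hypothalamus and 22.3, 24.7 and 26.9 CPM in brainstem (adjusted p = 0.381), and Maoa and Hrh2 also did not pass the test, though Maoa did without the 2 hypothalamus libraries with cortical transcripts (adjusted p = 0.0202).

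Hox genes were far lower in hypothalamus. Of 39 listed, 20 passed the filter, and they passed it through the brainstem libraries, so that a difference in this direction was set by the filter and the calls of the 20 beyond 2-fold are a description only. Summed over the list, Hox transcripts made up 0.3 to 0.6 CPM in the hypothalamus libraries and 186 to 262 CPM in the brainstem libraries. Per kb of exon, Hoxa5 (chr6:52201754-52204587, minus strand), whose promoter is shown above, and Hoxb5 (chr11:96303336-96306121, plus strand) were the highest in brainstem, at means of 18 and 16.4 CPM per kb. Hoxa5 had 3 counts in all 6 hypothalamus libraries and 28.1, 35.5 and 38.9 CPM in brainstem, a ratio of brainstem over hypothalamus of 2402 (95% counting interval 821 to 11649). Hoxb5 had 3 counts in hypothalamus, all in 1 library, and 36.1, 45.8 and 54.7 CPM in brainstem, a ratio of 3246 (95% counting interval 1110.5 to 15745). Hoxd3 had 1 count in hypothalamus and 19.7, 23.8 and 26 CPM in brainstem. Counts were 0 in every hypothalamus library for Hoxa6, Hoxb2, Hoxb6, Hoxb7, Hoxb8 and Hoxc6. Against the floor of 3 counts per library, brainstem Hoxb8 was at least 148-fold, Hoxb2 at least 113-fold and Hoxb6 at least 108-fold higher than hypothalamus.

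No gene of paralog groups 9 to 13 passed the filter. Per kb of exon, brainstem means were 2.76 CPM for Hoxb2, 5.53 for Hoxd3, 8.29 for Hoxa4, 3.42 for Hoxc5, 4.67 for Hoxb6 and 4.75 for Hoxb8. In members of groups 6 to 8 the brainstem libraries also differed among themselves. Hoxb8 had 12.8, 17.1 and 11.1 CPM in libraries 1 to 3 of the ataxin-3 line and 4.8, 19.3 and 10.1 CPM in libraries 1 to 3 of the knockout line. Knockout line library 1 was the lowest and knockout line library 2 the highest of the 6 in Hoxb8, and the same held in Hoxa6, Hoxa7, Hoxb6, Hoxb7 and Hoxc6. In Hoxd8 library 2 of the knockout line was the highest and library 3 the lowest (0.431, 0.875 and 0.376 CPM in knockout line libraries 1 to 3). Hoxb6 had 8.74, 10.8 and 8.72 CPM in the ataxin-3 line and 5.89, 11.7 and 9.2 CPM in the knockout line. Hoxb2 spanned 8.68 to 10.7 CPM and did not share this spread. Hoxa4 and Hoxa5 overlap Hoxaas3, Hoxb2 and Hoxb3 overlap Hoxb3os, Hoxb5 overlaps Hoxb5os and Hoxd3 overlaps Hoxd3os1 on the opposite strand, and the annotated Hoxa3 spans Hoxa4 to Hoxa6 on the same strand, so that reads of these neighbours may be split between them.

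**Figure D3:**
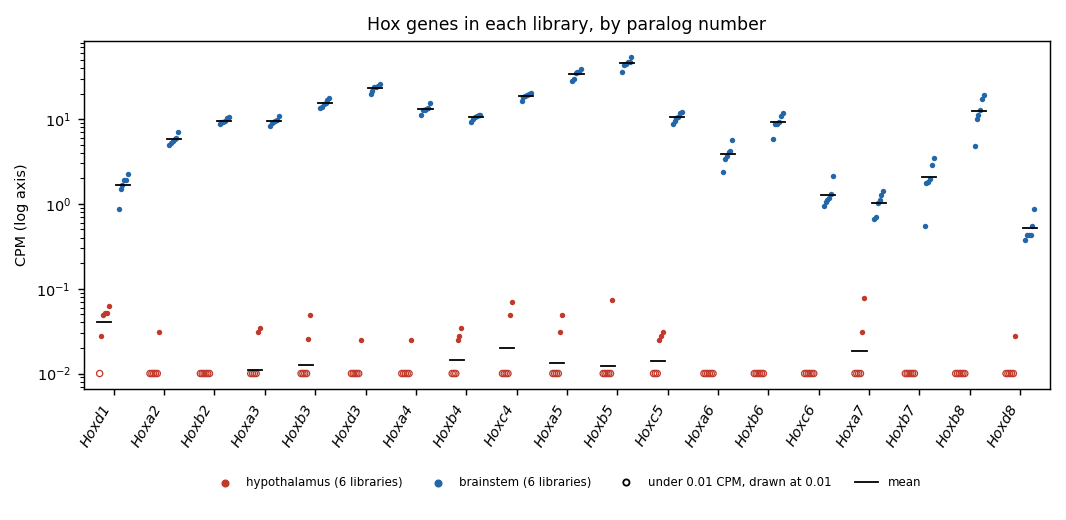
CPM (log axis) of 19 tested Hox genes in each of the 6 hypothalamus libraries (red) and 6 brainstem libraries (blue), ordered by paralog number, with a bar at the mean. Open circles are values under 0.01 CPM, drawn at 0.01. Brainstem points lie above hypothalamus points in each gene, and Hoxb5 has the highest brainstem level.

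Other factors of midbrain and hindbrain were listed as 45 genes, of which 43 were tested, with a median log2 fold change of -1.87. In hypothalamus 5 were higher and 35 lower (36.1% and 33.8% of all genes tested), 4 and 22 beyond 2-fold (5.78% and 4.91%). Members with almost no hypothalamus counts, such as Lbx1, passed the filter through the brainstem libraries, which set their direction. Lbx1, a factor of dorsal hindbrain interneurons, had 1 count in hypothalamus and 13.3, 14 and 15.2 CPM in brainstem, a ratio of brainstem over hypothalamus of 3012 (95% counting interval 540.1 to 119020.0). It was even across brainstem libraries. Pax2 and Pax8, paired-box genes of the midbrain-hindbrain boundary and of hindbrain interneurons, had 0.0277, 0.205 and 0.416 and 0.0277, 0.0507 and 0.124 CPM in hypothalamus. In brainstem Pax2 had 17.9, 18.8 and 22.8 CPM and Pax8 had 10.5, 11.4 and 12.8 CPM, and the log2 fold changes were -6.57 ± 0.23 and -7.48 ± 0.17 (adjusted p = 1.73e-11 and 2.79e-14). Gata3, a factor of serotonergic and V2b neurons, had 0.026, 0.114 and 0.277 CPM in hypothalamus and 4.49, 4.94 and 5.77 CPM in brainstem (log2 fold change -5.29 ± 0.27, adjusted p = 1.15e-10). The 4 members higher in hypothalamus beyond 2-fold were Egr2, Lhx2, Sox14 and Irx6. Lhx2, which is also a forebrain gene, had 6.87, 7.69 and 11.7 CPM in hypothalamus and 2.47, 2.7 and 3.3 CPM in brainstem (log2 fold change 1.62 ± 0.13, adjusted p = 3.3e-08). En2, a midbrain-hindbrain gene also expressed in cerebellum, had 0.587, 0.735 and 1.27 CPM in hypothalamus and 3.15, 10.9 and 19.6 CPM in brainstem. The 3 brainstem libraries with more cerebellar transcripts (ataxin-3 line library 3, knockout line libraries 1 and 2) had 19.6, 16.4 and 15.8 CPM of En2, against 3.15, 4.35 and 5.9 CPM in the other 3. Its log2 fold change was -3.79 ± 0.56 (adjusted p = 0.000153), and -2.55 without those 3 libraries.

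Serotonergic neurons lie in the raphe nuclei of the brainstem. All 13 genes listed were tested, 4 higher and 9 lower in hypothalamus (36.1% and 33.8% of all genes tested). Beyond 2-fold were 1 and 6 (5.78% and 4.91%). The 1 higher gene beyond 2-fold, Ddc, missed that rule under DESeq2 and without the 3 brainstem libraries with more cerebellar transcripts, and 2 passed it without scaling factors. Tph2, the neuronal enzyme of serotonin synthesis (chr10:115078641-115185022, minus strand), had 0.36, 0.507 and 0.591 CPM in hypothalamus and 17.2, 25.6 and 28.8 CPM in brainstem (log2 fold change -5.65 ± 0.16, adjusted p = 5.24e-13). Slc6a4, the serotonin transporter, had 0.0247, 0.0829 and 0.359 CPM in hypothalamus and 9.39, 14.7 and 15.6 CPM in brainstem (log2 fold change -6.89 ± 0.32, adjusted p = 8.82e-10), and its fold change was -7.71 without knockout line hypothalamus library 1. Fev, the factor that keeps these neurons serotonergic, had 0.078, 0.196 and 0.42 CPM in hypothalamus and 0.956, 1.34 and 1.56 CPM in brainstem (log2 fold change -2.51 ± 0.27, adjusted p = 7.67e-07). None of the 3 overlapped between regions. The 4 members higher in hypothalamus were Ddc, Slc18a2, Maob and Slc22a3. Ddc and Slc18a2, which all monoamine neurons use, averaged 58 ± 8.11 and 58 ± 13.6 CPM in hypothalamus, against 25.1 ± 1.77 and 28.4 ± 6.56 CPM in brainstem (SD, n = 6 each).

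Of 17 catecholamine genes listed, 15 were tested, 8 higher and 7 lower in hypothalamus (36.1% and 33.8% of all genes tested). The 2-fold rule was passed by 4 and 6 of these (5.78% and 4.91%). The lower genes included En1 and En2, patterning factors of the midbrain and hindbrain, and the higher ones Ddc and Slc18a2, which all monoamine neurons use. Dbh, which turns dopamine into noradrenaline, had 0.0553, 0.183 and 0.208 CPM in hypothalamus and 8.2, 9.94 and 12.7 CPM in brainstem (log2 fold change -6.01 ± 0.18, adjusted p = 4.95e-13). Slc6a2, the noradrenaline transporter, had 0, 0.0286 and 0.0742 CPM in hypothalamus and 4.84, 7.57 and 8.48 CPM in brainstem, its log2 fold change being -7.62 ± 0.31, adjusted p = 1.47e-11, and -8.58 without the 2 hypothalamus libraries with cortical transcripts. The locus coeruleus and the other noradrenergic groups lie in pons and medulla, and no library of one region overlapped the other in either gene. Th, the first enzyme of catecholamine synthesis and also that of arcuate dopamine neurons, was higher in hypothalamus, with 26.9, 35.6 and 55.2 CPM against 8.19, 10.001 and 11.6 CPM in brainstem (log2 fold change 1.93 ± 0.19, adjusted p = 3.82e-06). The highest Th level lay in hypothalamus library 1 of the knockout line, 1 of the 2 with cortical transcripts. Slc6a3, the dopamine transporter, had 5.56, 7.44 and 29.4 CPM in hypothalamus and 0.0905, 0.18 and 2.99 CPM in brainstem (log2 fold change 4.62 ± 0.80, adjusted p = 0.000551). Brainstem library 2 of the ataxin-3 line held 2.99 CPM of Slc6a3, and without it the log2 fold change was 6.01, against 5.40 without the 3 pituitary-holding and 3.76 without the 3 cerebellum-holding libraries. Hypothalamus library 2 of the ataxin-3 line held the highest Slc6a3 level, 29.4 CPM. It also held 44 counts of En1, against 4 to 10 in the other hypothalamus libraries. In the transgenic and knockout libraries Slc6a3 was not called (log2 fold change 1.33, adjusted p = 0.283 by edgeR). The 4 higher genes passing the 2-fold rule became 2 with DESeq2 and 2 without the 3 brainstem libraries with more cerebellar transcripts.

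Motor and other cholinergic neuron genes were listed as 21, of which 18 were tested, with a median log2 fold change of -1.57. In hypothalamus 2 were higher and 14 lower (36.1% and 33.8% of all genes tested), 2 and 9 beyond 2-fold (5.78% and 4.91%). The 2 became 1 without the 3 brainstem libraries with more cerebellar transcripts. Slc5a7, the choline transporter that marks cholinergic terminals and cell bodies, had 3.54, 4.5 and 12.9 CPM in hypothalamus and 76.3, 92.3 and 108 CPM in brainstem (log2 fold change -3.98 ± 0.29, adjusted p = 6.05e-07). Tbx20, a factor of cranial motor neurons, had 0.0513, 0.117 and 0.223 CPM in hypothalamus and 3.35, 3.75 and 5.32 CPM in brainstem (log2 fold change -4.97 ± 0.24, adjusted p = 5.22e-11). Both genes had every hypothalamus library below every brainstem library. Ache, the acetylcholine-degrading enzyme, had 188, 211 and 245 CPM in hypothalamus and 178, 193 and 232 CPM in brainstem and did not pass the test (adjusted p = 0.389). The 2 members higher in hypothalamus were Isl1, given above, and Chrna6, a nicotinic receptor subunit of dopamine neurons, with 1.08, 4.93 and 7.37 CPM in hypothalamus and 0.671, 0.765 and 1.09 CPM in brainstem. Chrna6 was not called in the transgenic and knockout libraries (log2 fold change 0.79, adjusted p = 0.257 by edgeR).

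Glycine is a main inhibitory transmitter of brainstem and spinal cord. All 11 genes listed were tested, 3 were higher in hypothalamus and 7 lower (36.1% and 33.8% of all genes tested). Beyond 2-fold were 3 and 5 (5.78% and 4.91%). The 3 higher were Glra2, Glra3 and Gldn, the last of which is not a gene of glycine transmission (log2 fold change 2.46 ± 0.11). Slc6a5, the glycine transporter of glycinergic terminals (chr7:49910146-49963856, plus strand), had 0.155, 0.31 and 0.552 CPM in hypothalamus and 399.9, 528 and 573 CPM in brainstem (log2 fold change -10.63 ± 0.16, adjusted p = 1.9e-14). Every brainstem library was at or above 399.9 CPM and no hypothalamus library reached 1 CPM. The glycine receptor subunits went in both directions. Glra1, the adult α subunit, had 8.59, 12.2 and 15.4 CPM in hypothalamus and 87.6, 110.3 and 127 CPM in brainstem (log2 fold change -3.22 ± 0.11, adjusted p = 1.93e-11), and Glrb, the β subunit, had a log2 fold change of -1.24 ± 0.04, adjusted p = 2.44e-12. Glra2 and Glra3, other α subunits, were higher in hypothalamus. Glra2 had 46.3, 49.7 and 52.9 CPM in hypothalamus and 16.7, 17.3 and 20.1 CPM in brainstem (log2 fold change 1.46 ± 0.05, adjusted p = 2.06e-12), and Glra3 had 16.8, 20.5 and 24 CPM in hypothalamus and 5.88, 6.45 and 7.67 CPM in brainstem (log2 fold change 1.61 ± 0.07, adjusted p = 1.21e-11). Glra4 did not pass the test (adjusted p = 0.703).

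Receptor subunits for GABA, glutamate and glycine were 44, all tested, 30 higher and 9 lower in hypothalamus (36.1% and 33.8% of all genes tested). Beyond 2-fold were 9 and 3 (5.78% and 4.91%). The ε and θ subunits of the GABA-A receptor, whose genes lie together on the X chromosome, had the largest differences upward. Gabre had 36.4, 44.1 and 58.7 CPM in hypothalamus and 3.36, 3.96 and 5.32 CPM in brainstem (log2 fold change 3.47 ± 0.13, adjusted p = 7.05e-11), and Gabrq had 124, 136 and 172 CPM in hypothalamus and 17.2, 18.5 and 22.8 CPM in brainstem (log2 fold change 2.88 ± 0.09, adjusted p = 4.75e-12). Gria2, the AMPA receptor subunit that sets calcium permeability, was higher in hypothalamus (log2 fold change 1.24 ± 0.06, adjusted p = 4.75e-11). Gria3 and Gria4 were lower (log2 fold changes -0.48 ± 0.07 and -0.92 ± 0.08, adjusted p = 1.22e-05 and 1.24e-07). Gabra6, the subunit of cerebellar granule cells, had 2 counts in hypothalamus and 12.4, 49.2 and 143 CPM in brainstem, and its brainstem level followed the cerebellar libraries described below. Of 15 genes that make or carry GABA and glutamate, all tested, 5 were higher and 5 lower in hypothalamus, near the shares of all genes tested (36.1% and 33.8%). None passed the 2-fold rule, but 1 was lower by it without the 2 hypothalamus libraries with cortical transcripts and 1 higher without the 3 brainstem libraries with more cerebellar transcripts. At any size 8 were higher and 3 lower without scaling factors, and 3 higher and 4 lower without the 3 brainstem libraries with more cerebellar transcripts. Gad2, a GABA-synthesising enzyme, had 428, 485 and 598 CPM in hypothalamus and 233, 262 and 295 CPM in brainstem (log2 fold change 0.94 ± 0.08, adjusted p = 7.48e-08). Slc1a3, a glutamate transporter of astrocytes, had a log2 fold change of 1.18 ± 0.21, adjusted p = 0.000438, while Slc1a2, the other main glial glutamate transporter, had one of -0.52 ± 0.05, adjusted p = 4.91e-07.

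Axonal and myelin genes were lower in hypothalamus almost without exception. Of 29 genes listed for neurofilaments and large axons, all tested, 26 were lower and 3 higher in hypothalamus (Cntnap2 and Ncan among them), and 20 were lower beyond 2-fold. Over all genes tested 33.8% were lower and 36.1% higher, and 4.91% were lower beyond 2-fold. Cntnap2 lost its call without the 3 brainstem libraries with more cerebellar transcripts (adjusted p = 0.42). The median log2 fold change was -1.69. Nefh, the heavy neurofilament subunit, had 80.4, 89.9 and 98.5 CPM in hypothalamus and 786, 897 and 1014 CPM in brainstem (log2 fold change -3.32 ± 0.07, adjusted p = 2.39e-14). Kcna1, a potassium channel beside the nodes of Ranvier, had 74.6, 83.7 and 94.6 CPM in hypothalamus and 612, 759 and 906 CPM in brainstem (log2 fold change -3.18 ± 0.08, adjusted p = 6.07e-14). Syt2, the calcium sensor of fast synapses, had 52.9, 64 and 81.6 CPM in hypothalamus and 722, 859 and 914 CPM in brainstem (log2 fold change -3.70 ± 0.09, adjusted p = 1.45e-13). All 3 kept the regions apart. All 27 myelin genes tested were lower in hypothalamus, 21 beyond 2-fold (33.8% and 4.91% of all genes tested), with a median log2 fold change of -1.78. Mbp, myelin basic protein, had 1381, 1564 and 1676 CPM in hypothalamus and 6439.9, 7075 and 7565 CPM in brainstem (log2 fold change -2.17 ± 0.06, adjusted p = 1.95e-13). The regions did not overlap. Of the 9 genes of oligodendrocyte precursors tested, 4 were higher and 3 lower in hypothalamus, which is near the shares of all genes tested (36.1% and 33.8%). The 3 lower were Enpp6, C1ql1 and Vcan, with log2 fold changes of -2.14 ± 0.08, -1.26 ± 0.22 and -0.33 ± 0.08 (adjusted p = 2.58e-12, 0.00042 and 0.00259), and only Enpp6 passed the 2-fold rule. Pdgfra, the receptor that defines precursor cells, had 75.5, 81.1 and 89.3 CPM in hypothalamus and 49.4, 54.9 and 59.4 CPM in brainstem (log2 fold change 0.58 ± 0.05, adjusted p = 1.23e-07).

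**Figure D4:**
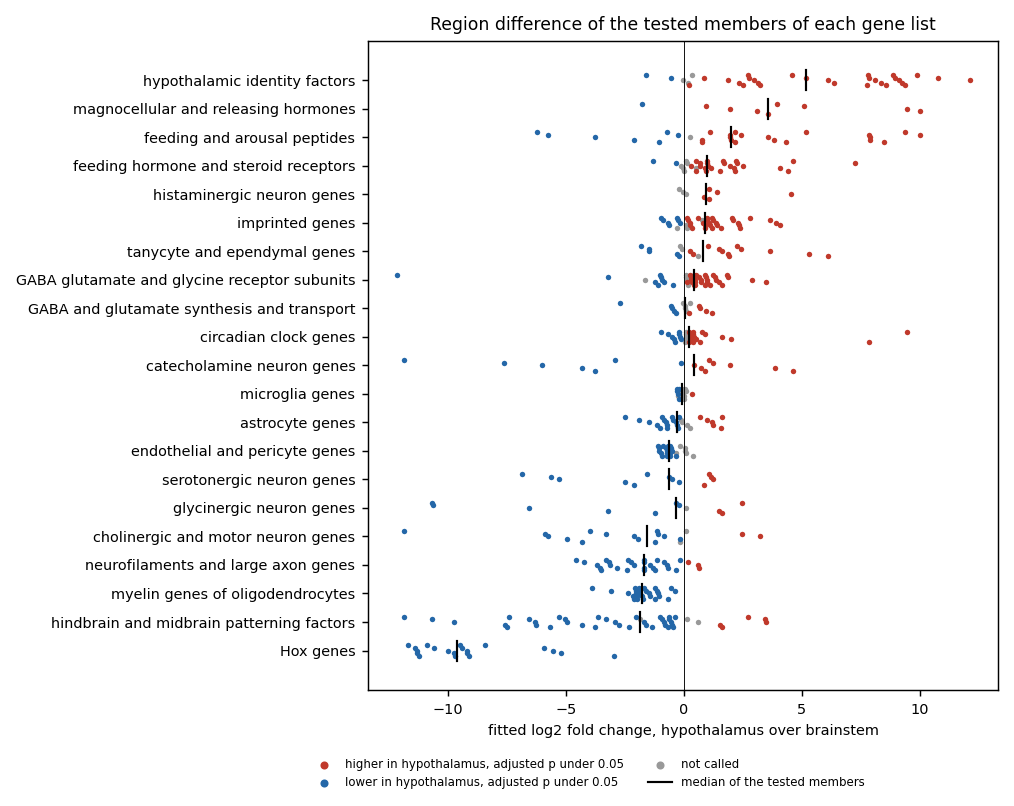
Fitted log2 fold change, hypothalamus over brainstem, of each tested member of 21 gene lists. Red points were called higher and blue points lower in hypothalamus at an adjusted p under 0.05, grey points were not called, and the black bar is the median of the list. Hypothalamic identity factors lie to the right with a median of 5.18 and Hox genes to the left. Most receptor subunits lie to the right of 0, and transmitter enzymes lie on both sides of it.

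Vessel cells, microglia and astrocytes occur in both regions. Counts of their genes stand beside 36.1% higher and 33.8% lower over all genes tested, and 5.78% and 4.91% beyond 2-fold. Of 25 endothelial and pericyte genes, all tested, 19 were lower in hypothalamus, none higher and none beyond 2-fold, with a median log2 fold change of -0.63, and 1 was higher without scaling factors or without the 3 hypothalamus libraries with pituitary transcripts. Flt1, a VEGF receptor of endothelium, had 45.4, 46.3 and 49.8 CPM in hypothalamus and 78.5, 84.9 and 97.3 CPM in brainstem (log2 fold change -0.88 ± 0.05, adjusted p = 2.28e-10). Of 18 microglial genes tested, 1 was higher and 5 lower in hypothalamus, none beyond 2-fold, with 3 higher and 1 lower without scaling factors and 2 higher and 1 lower without the 3 hypothalamus libraries with pituitary transcripts. Cx3cr1, a microglial receptor, had 32.2, 35.6 and 40.3 CPM in hypothalamus and 32.5, 35.3 and 40.4 CPM in brainstem (adjusted p = 0.824). Astrocyte genes went both ways, 6 higher and 16 lower of 26 tested. Itih3 and Mfge8 were higher in hypothalamus (log2 fold changes 1.58 ± 0.07 and 1.23 ± 0.05, adjusted p = 2.28e-11 and 4.68e-12). Aqp4, the water channel of astrocyte endfeet, had 174, 198 and 233 CPM in hypothalamus and 488, 572 and 623 CPM in brainstem (log2 fold change -1.47 ± 0.08, adjusted p = 5.1e-10), and S100b had a log2 fold change of -1.91 ± 0.08, adjusted p = 3.68e-11. Sox9 and Vim did not pass the test (adjusted p = 0.0907 and 0.592), though Sox9 did without hypothalamus library 1 of the knockout line (log2 fold change 0.16, adjusted p = 0.0129).

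Tanycytes, the ependymal cells that line the base of the third ventricle, were represented with other ependymal genes by 21 genes. Of the 20 tested, 12 were higher and 5 lower in hypothalamus (36.1% and 33.8% of all genes tested). Beyond 2-fold were 9 and 3 (5.78% and 4.91%). The 5 lower genes became 3 without scaling factors or without the 3 hypothalamus libraries with pituitary transcripts. Gpr50, a melatonin-related receptor of tanycytes, had 23.3, 25.1 and 37.7 CPM in hypothalamus and 0.546, 0.67 and 1.14 CPM in brainstem (log2 fold change 5.30 ± 0.18, adjusted p = 2.27e-11). Dio2, the deiodinase that makes active thyroid hormone and is made in astrocytes as well as tanycytes, was lower in hypothalamus, with 16.7, 26.8 and 35.4 CPM against 69.6, 73.4 and 83 CPM in brainstem (log2 fold change -1.48 ± 0.17, adjusted p = 2.08e-05). Foxj1, the master gene of motile cilia, had 19, 23.8 and 26.9 CPM in hypothalamus and 21.5, 24.9 and 32.3 CPM in brainstem and did not pass the test (adjusted p = 0.179), but did without the 3 brainstem libraries with more cerebellar transcripts (log2 fold change -0.34, adjusted p = 0.0265).

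Imprinted genes, expressed from 1 parental copy, were mostly higher in hypothalamus. Of 44 listed, 39 were tested, 28 higher and 7 lower (36.1% and 33.8% of all genes tested). Beyond 2-fold 15 were higher and none lower (5.78% and 4.91%), and the median log2 fold change was 0.91. The 7 lower genes became 2 without scaling factors, and 4 without either the 3 pituitary-holding or the 3 cerebellum-holding libraries. Magel2, a gene of the Prader-Willi region, had 71.3, 74.4 and 99.996 CPM in hypothalamus and 5.72, 6.28 and 8.65 CPM in brainstem (log2 fold change 3.62 ± 0.12, adjusted p = 1.22e-11). Asb4, a ubiquitin ligase adaptor of arcuate neurons, had 53.1, 60.8 and 72 CPM in hypothalamus and 3.89, 4.1 and 4.25 CPM in brainstem (log2 fold change 3.91 ± 0.08, adjusted p = 1.79e-14). Peg10, a gene derived from a retrotransposon, had 485, 531 and 638 CPM in hypothalamus and 90.0, 104 and 119.7 CPM in brainstem (log2 fold change 2.39 ± 0.08, adjusted p = 4e-12). No library crossed over in any of the 3. Dlk1, which is also a pituitary gene, averaged 383 ± 83.1 CPM in hypothalamus and 79.4 ± 11.6 CPM in brainstem (SD, n = 6 each).

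Markers of adjoining tissue divided the libraries of each region, and they moved with several of the results above. Transcripts of the listed pituitary genes summed to 28301, 15248 and 21070.0 CPM in hypothalamus libraries 1 and 3 of the ataxin-3 line and 3 of the knockout line, against 590.3 to 729 CPM in the other 3 hypothalamus libraries and 344 to 434 CPM in brainstem. Over all genes tested 36.1% were higher in hypothalamus, and 5.78% beyond 2-fold. Of the 13 pituitary genes tested, 11 were higher in hypothalamus and 8 beyond 2-fold. Those numbers were 7 and 6 without those 3 libraries, 10 and 5 without the 2 hypothalamus libraries with cortical transcripts, 3 and 1 without the 3 brainstem libraries with more cerebellar transcripts, 9 and 3 without the 2 brainstem libraries with a high share of unassigned reads, and 12 and 12 under DESeq2. Prl, the prolactin gene, had 0.442, 963 and 3360.0 CPM in hypothalamus and 0, 1.11 and 5.88 CPM in brainstem, and its log2 fold change was 9.53 with all libraries, 7.996 without hypothalamus library 3 of the knockout line, 10.24 without brainstem library 3 of the ataxin-3 line, 9.68 (adjusted p = 0.101) without the 3 cerebellum-holding libraries, and -0.88 (adjusted p = 0.587) without the 3 pituitary-holding libraries. Gnrhr, the pituitary receptor for gonadotropin-releasing hormone, had no count in brainstem.

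In brainstem the 18 listed cerebellar genes summed to 2600.4 CPM in library 3 of the ataxin-3 line and to 2098 and 2067 CPM in libraries 1 and 2 of the knockout line, against 685 to 809 CPM in the other 3 and 708 to 802 CPM in hypothalamus. Single genes of the list were also above hypothalamus in the other 3. In ataxin-3 line libraries 1 and 2 and knockout line library 3, Gabra6 had 329, 228 and 624 counts, against at most 1 in a hypothalamus library. Cbln3 had 577, 540 and 1520 counts there, against 17 to 29 in hypothalamus. Leaving out the 3 higher libraries does not remove such transcripts. Over all genes tested 33.8% were lower in hypothalamus, and 4.91% beyond 2-fold. Of the 18 cerebellar genes, 13 were lower in hypothalamus and 8 of these beyond 2-fold, which became 2 without the 3 hypothalamus libraries with pituitary transcripts. Without the 3 cerebellum-holding brainstem libraries 4 were higher and 12 lower in hypothalamus, 1 and 6 beyond 2-fold, while none was higher with all libraries. Pcp2, a Purkinje cell gene, had 3 counts in hypothalamus and 2.28, 22.5 and 58.7 CPM in brainstem. Slc17a7, the vesicular glutamate transporter of cortical and cerebellar granule neurons, had 119 and 87.5 CPM in hypothalamus libraries 1 and 3 of the knockout line, against 0.572 to 12.3 CPM in the other 4 and 135 to 183 CPM in brainstem. Its log2 fold change of -2.69 ± 1.03, adjusted p = 0.0406 lost its call without any 1 ataxin-3 line library of either region or brainstem library 1 of the knockout line (adjusted p = 0.0546 to 0.0959), and was -5.09 without the 2 hypothalamus libraries with cortical transcripts. The choroid plexus list summed to 293 to 329.5 CPM in hypothalamus and 2349.8 to 5410.4 CPM in brainstem. In hypothalamus 12 of its 13 genes were lower, 10 beyond 2-fold (33.8% and 4.91% of all genes tested). Ttr, the transthyretin gene of choroid epithelium, had 0.702, 1.19 and 1.97 CPM in hypothalamus and 1179.5, 2369.9 and 2830.0 CPM in brainstem (log2 fold change -10.84 ± 0.37, adjusted p = 1.08e-09). The part of pituitary, cortex and cerebellum in the region differences was not tested beyond leaving the libraries out. Choroid plexus transcripts were high in every brainstem library, so no set could be left out for them. Their part cannot be told apart from the region. Of the 1814 genes called beyond 2-fold, 1588 kept their call and direction without the 3 pituitary libraries, 1513 without the 3 cerebellar libraries and 1684 without the 2 cortical libraries.

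**Figure D5:**
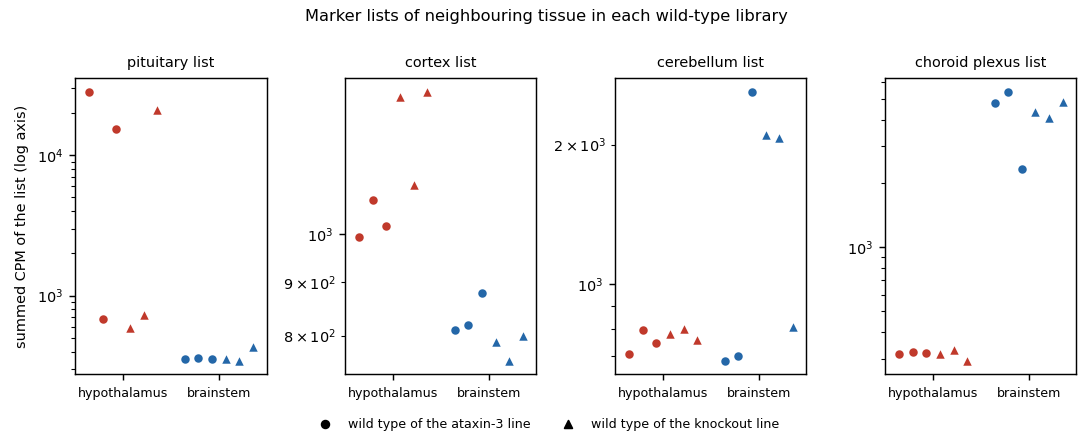
Summed CPM (log axis, each panel with its own range) of the pituitary, cortex, cerebellum and choroid plexus lists in each wild-type library, hypothalamus in red on the left and brainstem in blue on the right. Circles are wild types of the ataxin-3 line and triangles wild types of the knockout line. In the pituitary panel 3 hypothalamus libraries stand above the other 3, and in the cerebellum panel 3 brainstem libraries stand above the other 3.

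Whether the region difference depended on the line was tested by the interaction of line and region. No gene of 16973 (0.0%) passed the adjusted p of 0.05 by edgeR, where the smallest was 0.624. An unadjusted p under 0.05 was reached by 1307 genes, where evenly spread p-values would give 849, and DESeq2 called 3. Without brainstem library 3 of the ataxin-3 line, one of those with more cerebellar transcripts, 59 genes were called, and 3 without the 2 brainstem libraries with a high share of unassigned reads. The genes nearest to a call, given as ataxin-3 line minus knockout line, included Zfp831, with an interaction of -1.18 on the log2 scale. Zfp831 had 7.18, 8.4 and 7.38 CPM in hypothalamus and 2.36, 2.01 and 2.38 CPM in brainstem of the ataxin-3 line, and 13.3, 9.62 and 11.3 CPM in hypothalamus and 1.32, 1.48 and 1.66 CPM in brainstem of the knockout line. Ftx, a noncoding RNA beside Xist, had an interaction of -0.99, with 10.3, 10.01 and 11.9 CPM in hypothalamus and 11, 10.01 and 7.36 CPM in brainstem of the ataxin-3 line, and 15.7, 12.7 and 13.5 CPM in hypothalamus and 6.73, 6.06 and 5.74 CPM in brainstem of the knockout line. Prdx5, a mitochondrial and peroxisomal peroxiredoxin, had an interaction of 0.50. Its brainstem values were 168, 164 and 215 CPM in the ataxin-3 line and 233, 239.8 and 249.7 CPM in the knockout line. None of the 3 passed the test (adjusted p = 0.624 by edgeR). The interactions of Oxt (-3.77) and Avp (-2.35) also did not.

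The same contrast in the 12 transgenic and knockout libraries tested 16829 genes, of which 11041 (65.6%) were called, 5585 (33.2%) higher in hypothalamus and 5456 (32.4%) lower, and 1853 (11.0%) beyond 2-fold. Of the 1814 genes called beyond 2-fold in wild types, 1786 were tested there. The direction was the same in 1780, and 1566 were called beyond 2-fold in the same direction, which is 87.7% of the wild-type calls tested there and 85.3% of the 1836 calls of the second set that wild types also tested. Pmch had a log2 fold change of 9.70 there (adjusted p = 2.87e-10), Slc6a5 -10.11 (adjusted p = 1.27e-11) and Tph2 -5.55 (adjusted p = 5.24e-12). Hcrt, the gene that one model lacks and whose neurons the other loses, had a log2 fold change of 1.98 there (adjusted p = 0.0581). The difference between the 2 sets was not tested for single genes.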

How the data were processed

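Total RNA from dissected mouse tissue was made into stranded libraries of polyadenylated RNA, per the labels' protocols. The deposited values are whole-number read counts per gene made by the authors with cutadapt 1.2.1, TopHat2 2.0.9 and HTSeq 0.5.4p3 on GRCm38, per the submitters' processing notes. No source used here states the strand setting, the rule for overlapping genes or the annotation release. Each table lists 38924 gene identifiers, of which 37607 had a name and position in GENCODE M21. The 5 lines of unassigned reads entered neither library sizes nor tests, and held 25.2% to 26.0% of the reads in hypothalamus and 27.0% to 42.0% in brainstem.

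Counts were filtered by expression, scaled by trimmed mean of M-values factors and fitted with line and region as terms by the quasi-likelihood test of edgeR 4.0.16 in R 4.3.3, with Benjamini-Hochberg adjustment and a threshold of 0.05. The 2-fold rule tested against a minimum log2 change of 1. The interaction of line and region had a fit of its own, as had the 12 transgenic and knockout libraries. DESeq2 1.42.0 was an alternative. Python 3.11.15 with pandas 2.3.3, scipy 1.17.1 and matplotlib 3.10.9 made the summaries. Fits were tested on simulated data. The biological coefficient of variation was 12.1% in wild types and 14.9% in the transgenic and knockout libraries. Counting intervals are exact at 95%, the floor is 3 counts in each library (a mean of 0.0848 CPM in hypothalamus and 0.104 CPM in brainstem), and both cover counting error only. All 12 pairs of replicates differed by more than sampling noise (chi-square per degree of freedom 6.16 to 345.0).

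Genes named were the 15 with the largest called difference in each direction among those beyond 2-fold, not overlapping between regions and at a mean of at least 1 CPM in the higher region, up to 8 members per direction of each list by smallest p, every tested Hox gene and the 8 genes per direction nearest to an interaction. Hcrtr1, Gnrhr, Meis2 and Adora2a were named after their values were seen, and some genes within the rule are not reported here. The comparison and the gene lists were chosen with earlier results of these data known. Alternatives covered scaling, filtering, DESeq2, a replicate block, each line alone, all 36 libraries in 1 fit and each library left out. The replicate number was not taken as a pairing, since the labels do not say what it marks.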

Additional observations from a re-analysis of the deposited data

Results flagged for a closer look

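Summed levels of each gene list were screened for a library far from the other 5 of its region by Dixon's ratio of gap to range at the 95% level. Of 66 list and region combinations 3 passed, where chance passes about 1 in 20. The hindbrain and midbrain patterning factors summed to 550.0 CPM in hypothalamus library 1 of the knockout line, against 326 CPM in the next library and 287 CPM in the lowest. Meis2, a homeobox gene also expressed in striatal and olfactory neurons, had 201 CPM there, against a median of 17.8 CPM over the 6 hypothalamus libraries. That library, in the set named for cortical transcripts, also held the highest Gad1 and Omp of the 6. Their levels were 778 and 7.39 CPM, against medians of 378 and 2.16 CPM. Which tissue these came from was not tested. The pituitary list summed to 434 CPM in brainstem library 3 of the knockout line, against 357 CPM in the next and 344 CPM in the lowest brainstem library. The striatum list summed to 778 CPM in hypothalamus library 3 of the ataxin-3 line, against 591 CPM in the next and 523 CPM in the lowest. Adora2a, an adenosine receptor gene of striatal projection neurons, had 9.07 CPM there, against a median of 1.5 CPM over the 6 hypothalamus libraries. The part of these libraries in the region differences was tested only by leaving each out.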

How the results depend on the processing

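The counts of called genes stayed within 1.5 times the reported counts under every alternative run, except for the interaction. Genes called at any size numbered 11413 to 11849 with each library left out, and genes called beyond 2-fold 1751 to 1877. In the transgenic and knockout libraries the first count was 10501 to 11705. The interaction of line and region, with 0 calls, had 3 with DESeq2, 3 without the 2 brainstem libraries with a high share of unassigned reads, and 0 to 59 with each library left out, the 59 coming without brainstem library 3 of the ataxin-3 line. The cause was not tested.

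Over 385 named genes, 9978 values under alternatives were set against the reported ones. In 9594 direction and side of the threshold held, 265 values in 75 genes lost the call, 116 in 38 genes gained it and 3 changed sign. The 3 were Tagln (-0.31 without hypothalamus library 2 of the ataxin-3 line, and up to 0.20 with another library left out), Prl (-0.88 without the 3 pituitary-holding libraries) and, without scaling factors, Eef2 (0.017).

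A replicate block gave 11670 calls at any size and 1827 beyond 2-fold in wild types, 0 for the interaction and 10926 in the transgenic and knockout libraries. Deviations of same-numbered libraries correlated at -0.016 to 0.073, and 9 of 12 libraries correlated best with the one of their own number, which is a hint from the data and not from the design. Depth limits folds of genes with 0 to 3 counts in one region to floors and counting intervals. The sources do not say whether libraries are separate animals.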

Other observations

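Genes of the circadian clock, the molecular loop that keeps daily time, were 31, all tested. In hypothalamus 17 were higher and 9 lower (36.1% and 33.8% of all genes tested), 4 and 0 beyond 2-fold (5.78% and 4.91%). Without scaling factors 20 were higher and 4 lower. The time of tissue collection was not given in the sources used here. Arntl, the positive arm of the loop, had 21.5, 23.7 and 25.8 CPM in hypothalamus and 12.5, 15.5 and 16.8 CPM in brainstem (log2 fold change 0.67 ± 0.08, adjusted p = 1.87e-06 by edgeR). Per3, of the negative arm, had 49.9, 51.4 and 58.5 CPM in hypothalamus and 37.4, 39.4 and 45.1 CPM in brainstem (log2 fold change 0.39 ± 0.06, adjusted p = 1.51e-05 by edgeR). Rora and Nr1d2, nuclear receptors that drive and repress Arntl, were lower in hypothalamus, with log2 fold changes of -0.99 ± 0.09 and -0.50 ± 0.04 (adjusted p = 4.17e-07 and 1.49e-08 by edgeR). Cirbp, a cold-inducible RNA-binding protein, had 73.7, 85.3 and 93.4 CPM in hypothalamus and 35.8, 45.6 and 54.2 CPM in brainstem (log2 fold change 0.89 ± 0.06, adjusted p = 6.58e-09 by edgeR), with no overlap between regions. Prokr2, the receptor of the suprachiasmatic signal Prok2, had 10.2, 14.5 and 18.2 CPM in hypothalamus and 4.02, 4.71 and 5.94 CPM in brainstem.

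Immediate early genes, which neurons switch on within minutes of activity, were 20, all tested. In hypothalamus 12 were higher and 5 lower (36.1% and 33.8% of all genes tested), 2 and 0 beyond 2-fold (5.78% and 4.91%). The 2 became 5 without scaling factors, and 1 under DESeq2 and without the 2 hypothalamus libraries with cortical transcripts, the 3 cerebellum-holding or the 2 high-unassigned brainstem libraries. Fos, the member most often used to map activity, had 15.3, 19 and 30.2 CPM in hypothalamus and 16.4, 20.7 and 26.1 CPM in brainstem and did not pass the test (adjusted p = 0.585 by edgeR), though it was lower in hypothalamus without the 2 hypothalamus libraries with cortical transcripts (log2 fold change -0.33, adjusted p = 0.0443 by edgeR). Junb had 14.2, 14.9 and 22.9 CPM in hypothalamus and 5.79, 7.42 and 9.28 CPM in brainstem (log2 fold change 1.19 ± 0.13, adjusted p = 1.34e-06 by edgeR). Dusp1, a phosphatase that ends MAP kinase signals, was lower in hypothalamus, with 11.7, 14.3 and 17.8 CPM against 23.8, 25.1 and 27.1 CPM in brainstem (log2 fold change -0.79 ± 0.08, adjusted p = 5.02e-07 by edgeR). Of 15 reference genes often used to scale tissue measurements, 4 were higher and 6 lower in hypothalamus, near the shares of all genes tested (36.1% and 33.8%), and none was beyond 2-fold. Without scaling factors 8 were higher and 4 lower, and without the 3 pituitary-holding libraries 2 and 5. Gapdh had 564, 601 and 646 CPM in hypothalamus and 673, 768 and 829 CPM in brainstem (log2 fold change -0.35 ± 0.05, adjusted p = 2.67e-05 by edgeR), while Actb had 718, 771 and 824 CPM in hypothalamus and 753, 795 and 837 CPM in brainstem (adjusted p = 0.381 by edgeR).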
